A study of Homo sapiens with 6 samples.

Results

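The p53-linked miRs are 8 mature microRNAs (miRs) known as transcription or processing targets of the tumour suppressor p53: hsa-miR-34a-5p, hsa-miR-34b-5p, hsa-miR-34c-5p, hsa-miR-192-5p, hsa-miR-194-5p, hsa-miR-215-5p, hsa-miR-143-3p and hsa-miR-145-5p. They were taken by exact name from a given list, with no measured value in the rule, although earlier results of these data were known when the list was made, and make up 8 of the 2588 miR names counted. The counts came from small RNA sequencing of HEK293T cells, an established human embryonic kidney line, in 3 libraries after RPL24 knockdown (KD) and 3 non-targeting control (NC) libraries. Both groups received siPOOLs, pools of many siRNAs, at 50 nM, directed against RPL24, a protein of the large ribosomal subunit, in KD and against no human gene in NC, and were collected 72 h later. The study's protocol also describes transfection with a plasmid for miR-608, done 48 h into the knockdown with harvest 24 h later. Whether the sequenced cells of either group received it could not be read from the labels. The paper calls the sequenced knockdown a separate experiment and reports that miR-608 was not detected in its sequencing data. Small RNA libraries do not hold the RPL24 mRNA or the p53 protein, so neither the depletion nor p53 could be checked in these counts.

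p53 is a transcription factor that stress stabilises by releasing it from its ubiquitin ligase MDM2, and free ribosomal proteins that bind MDM2 link faulty ribosome assembly to this release. It activates the genes of the miR-34 family and of the miR-192, miR-194 and miR-215 clusters, whose mature miRs repress mRNAs of cell cycle and survival proteins, and with the helicase DDX5 it is reported to promote Drosha processing of a group of primary transcripts that includes miR-143 and miR-145. HEK293T cells carry the SV40 large T antigen, which binds p53 and holds it inactive as a transcription factor, so this line is a limited model of a p53 response.

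The mature sequences show which members a target site or a read could tell apart. The RefSeq sequences used here, on GRCh38.p14, held 7 of the 8, and none is given for miR-34c-5p. They are given 5′ to 3′ with the seed, bases 2 to 8 that pair with targets, in capitals, beginning with the miR-34 family and its miR-449 relatives.

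hsa-miR-34a-5p: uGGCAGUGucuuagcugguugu
hsa-miR-449a: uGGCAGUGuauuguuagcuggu
hsa-miR-449b-5p: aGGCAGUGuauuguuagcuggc
hsa-miR-34b-5p: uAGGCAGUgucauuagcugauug
hsa-miR-449c-5p: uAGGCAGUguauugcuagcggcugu

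The seed of miR-34a-5p was that of miR-449a and miR-449b-5p, and the seed of miR-34b-5p was that of miR-449c-5p, shifted by 1 base from the first. The other members with a sequence carried 4 further seeds.

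hsa-miR-192-5p: cUGACCUAugaauugacagcc
hsa-miR-215-5p: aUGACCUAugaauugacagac
hsa-miR-194-5p: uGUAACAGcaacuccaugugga
hsa-miR-143-3p: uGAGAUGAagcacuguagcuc
hsa-miR-145-5p: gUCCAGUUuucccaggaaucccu

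miR-192-5p and miR-215-5p shared their seed and differed by the 2 substitutions C1A and C20A, with positions counted from the 5′ end and the base of miR-192-5p first. How reads that match more than 1 miR were counted is not given in the sources used here, so the split between these miRs, and between the miR-34 relatives, carries an uncertainty that the replicate error does not show.

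In the genome the members come from 4 pairs of neighbouring hairpins and 1 single hairpin. On GRCh38, MIR34A is at chr1:9151668-9151777 on the minus strand, in an exon of the lincRNA MIR34AHG. MIR34B, at chr11:111512938-111513021, and MIR34C, at chr11:111513439-111513515, lie 417 bases apart on the plus strand and overlap no other annotated gene. MIR192, at chr11:64891137-64891246, and MIR194-2, at chr11:64891355-64891439, are 108 bases apart in the exon of the lincRNA MIR194-2HG on the minus strand. MIR215, at chr1:220117853-220117962, and MIR194-1, at chr1:220118157-220118241, are neighbours on the minus strand, in introns of IARS2 transcripts, which run on the plus strand. The same mature miR-194-5p comes from both hairpins, so its counts cannot be assigned to either cluster. MIR143, at chr5:149428918-149429023, lies in an exon of the lincRNA CARMN, and MIR145, at chr5:149430646-149430733, in its intron, both on the plus strand.

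The libraries held 398721 to 611745 counts, and 3 counts, the floor used here, corresponded to 4.99 to 7.52 CPM (counts scaled to the TMM-adjusted library size). No source said that the 3 libraries of a group came from separate cultures, so p-values measure only the spread between these libraries, which may be technical. The first and second libraries of each group carry numbers, and the third carries a number found in no label and is called unnumbered. All 6 HEK293T markers, such as miR-10a-5p and miR-92a-3p, were detected, with a summed level of 233995 to 240806 CPM in KD and 218148 to 229405 CPM in NC. Of these, miR-196b-5p of the HOX clusters rose by 0.37 on the log2 scale (adjusted p = 0.00407 by edgeR), and the most abundant was miR-92a-3p. Of 13 markers of blood, liver, muscle, neurons, endothelium and epithelium, 9 had a read, while miR-223-3p, miR-150-5p, miR-206 and miR-205-5p had 0, and the summed level was 1821 to 1887 CPM in KD and 2159 to 2672 CPM in NC. Most of that sum was the endothelial miR-126-3p, which fell from 1949 to 1511 CPM (adjusted p = 0.0334 by edgeR), and the muscle miR-1-3p, with 337 CPM in NC and 256 CPM in KD (adjusted p = 0.0557), while the epithelial miR-200c-3p had 55.5 CPM in NC and 69.8 CPM in KD (adjusted p = 0.333). The part of that difference in the members' levels was not tested. All libraries came from HEK293T cells, and the paper lists miR-126-3p among the miRs lowered by RPL24 KD in this line. Whether the marker reads came from the line's own cells was not tested. In bulk samples a change in the share of cells that express a miR and a change in RNA per cell cannot be told apart.

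Across the 6 libraries the members covered a wide range of levels. The most abundant was miR-192-5p, with a mean of 4015 CPM and a range of 3622 to 4509 CPM. miR-194-5p followed with 403 CPM and a range of 337 to 519 CPM, and no library of it reached the range of the neighbours on either side. miR-34a-5p had a mean of 206 CPM and miR-215-5p 161 CPM, and their ranges, 164 to 276 CPM and 140.3 to 203 CPM, overlapped, so their order is not firm. The ranges of miR-143-3p, with a mean of 41.3 CPM, and miR-34c-5p, with 25.03 CPM, overlapped as well. miR-145-5p had 6 counts in all libraries together, and miR-34b-5p had none. Among the 1205 miRs with a read, miR-192-5p ranked 40 by mean CPM, miR-194-5p 118, miR-34a-5p 164, miR-215-5p 178, miR-143-3p 290, miR-34c-5p 327 and miR-145-5p 658. The 8 together made up 0.438 to 0.531% of the counts of a library. Differences in ligation between miRs enter such an order, since each level is a read count and not a number of molecules.

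**Figure D1:**
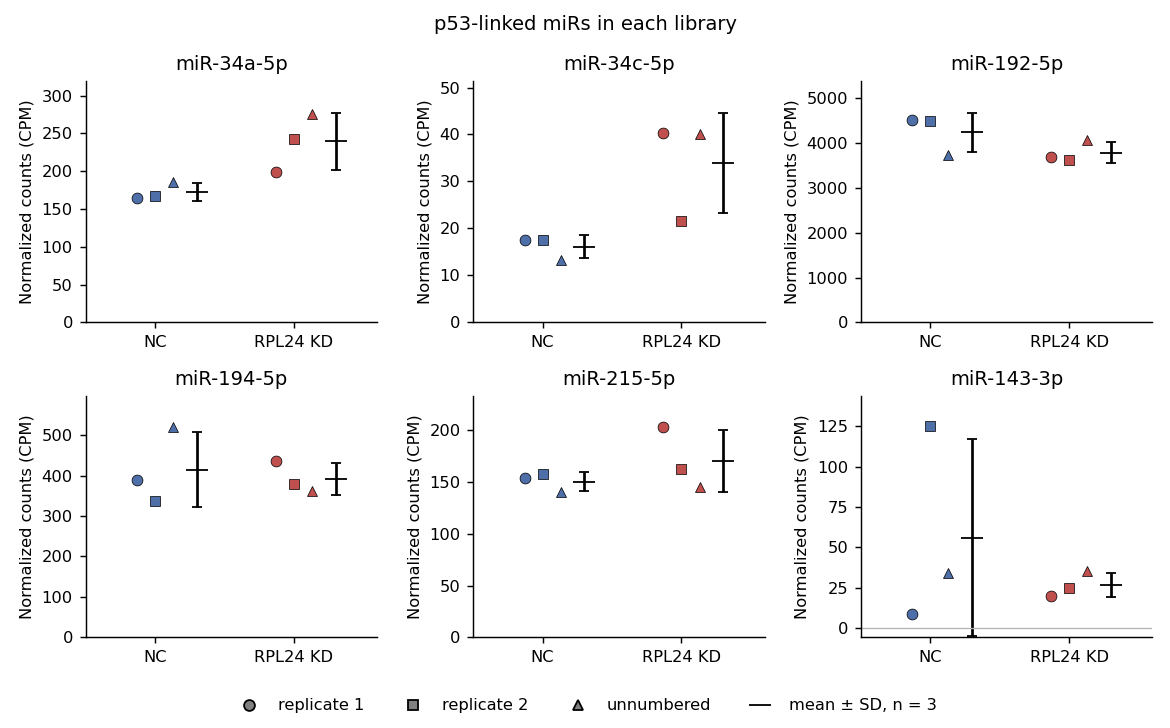
Normalized counts (CPM, linear axis) of the 6 tested p53-linked miRs, 1 panel each, with a point for each NC and RPL24 KD library and a bar for the mean ± SD (n = 3). The KD points of miR-34a-5p (199 to 276 CPM) and miR-34c-5p (21.6 to 40.2 CPM) lie above all NC points. The groups overlap for miR-192-5p, miR-194-5p, miR-215-5p and miR-143-3p. miR-34c-5p passed the filter on low counts only through its KD libraries.

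The comparison of KD with NC asks whether the p53-linked miRs moved when a ribosomal protein was depleted. None of the 6 members that could be tested passed the threshold. The miR-34 members had the highest positive log2 fold changes, 0.46 for miR-34a-5p and 1.03 for miR-34c-5p, and the abundant miR-192-5p had a value of -0.16. With edgeR's quasi-likelihood test and Benjamini-Hochberg adjustment over 360 miRs, 0 of 6 were called at an adjusted p under 0.05, where 5.00% of all tested miRs were called, 3.33% as higher and 1.67% as lower in KD. At an unadjusted p under 0.05 there were 2 of 6, miR-34a-5p and miR-34c-5p, against 23.6% of all tested miRs. DESeq2 and limma-voom also called 0 of the members. However, DESeq2 gave no adjusted p for miR-34c-5p, nor for miR-143-3p when run on the tested miRs, so it could not call them there. The 3 KD libraries lay above the 3 NC libraries for the same 2 members and below them for none, while 27.5% of all tested miRs did not overlap, 14.7% as higher and 12.8% as lower. The members divided into 3 with a positive and 3 with a negative log2 fold change, with a median of 0.05, beside a median of -0.01 over all tested miRs. miR-34c-5p passed the filter on low counts only through its KD libraries, so it could enter these counts only as a miR with higher values in KD.

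**Figure D2:**
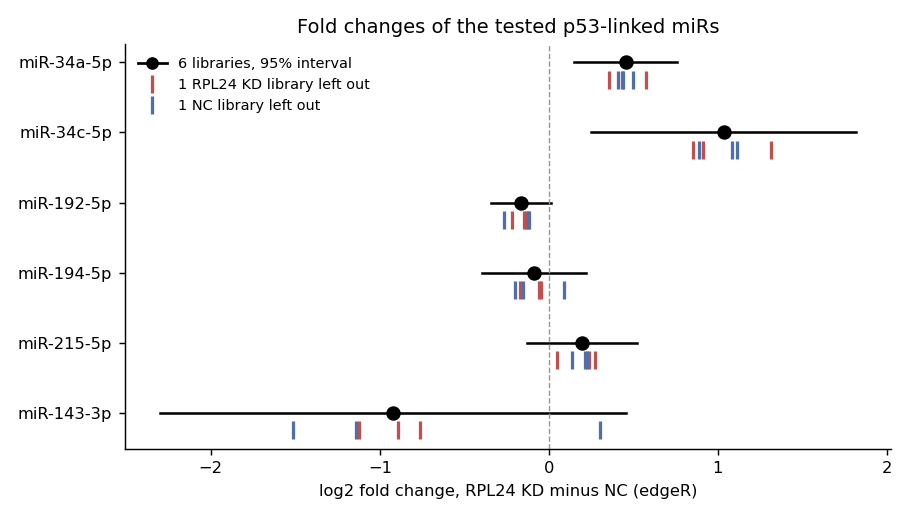
Log2 fold change (KD minus NC) of the 6 tested members, as dots with 95% confidence intervals from the edgeR fit, and ticks for the value with 1 library left out, coloured by its group. The intervals of miR-34a-5p (0.15 to 0.76) and miR-34c-5p (0.25 to 1.82) lie above 0, but neither miR passed the adjusted test. miR-34c-5p passed the filter only through its KD libraries, so it could enter only as higher in KD. The other 4 intervals include 0, and that of miR-143-3p (-2.30 to 0.46) is the widest.

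Of the miR-34 family, the best known direct targets of p53, miR-34a-5p and miR-34c-5p had higher levels in every KD library than in any NC library. Neither passed the adjusted test, 14.7% of all tested miRs were likewise higher without overlap, and miR-34b-5p was not detected. As miR-34c-5p passed the filter only through its KD libraries, it could enter only as higher in KD. Its separation therefore adds nothing to that of miR-34a-5p. miR-34a-5p, which represses cell cycle and survival mRNAs, had 109, 146 and 110 counts in KD (the numbered libraries, then the unnumbered library) and 94, 67 and 98 in NC. This was 199, 243 and 276 CPM in KD and 164, 167 and 186 CPM in NC. All 3 KD libraries stood above the highest NC library, by little in KD replicate 1. The means were 239 ± 38.3 CPM in KD and 173 ± 11.6 CPM in NC (SD, n = 3). The log2 fold change was 0.46 (SE 0.142, 95% interval 0.15 to 0.76) with an adjusted p of 0.0729 by edgeR's quasi-likelihood test, rank 32 of the 360 p-values. The exact permutation test of the CPM, two-sided, gave p = 0.1, the smallest that 3 against 3 libraries allow. The CV between KD libraries was 16.0%, above the 9.81% from counting alone, and between NC libraries it was 6.69%, below that value. A CV from 3 libraries is itself uncertain. miR-34a-5p passed the threshold in 1 of 6 fits that left out a library: without the unnumbered NC library the log2 fold change was 0.50 with an adjusted p of 0.0479 by edgeR.

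miR-34c-5p, made from the transcript it shares with miR-34b, was counted 22, 13 and 16 times in KD and 10, 7 and 7 times in NC. The levels were 40.2, 21.6 and 40.1 CPM in KD and 17.5, 17.5 and 13.3 CPM in NC. The lowest KD library, replicate 2, was close to the highest NC libraries, and the groups did not overlap. The means were 34.0 ± 10.7 CPM and 16.1 ± 2.44 CPM (SD, n = 3), and the log2 fold change was 1.03 (SE 0.365, 95% interval 0.25 to 1.82) with an adjusted p of 0.113 by edgeR. At these counts the counting error alone had a CV of 28.3%, and the filter cut-off of 18.7 CPM was passed by 3 KD libraries and 0 NC libraries. No fit with a library left out brought miR-34c-5p past the threshold. miR-34b-5p, the other product of the transcript, had 0 counts in all 6 libraries, which allows up to 3 counts, or 4.99 to 7.52 CPM, in each and covers counting error only.

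Summed over the miR-34 members, the level was 273 ± 38.8 CPM in KD, with a range of 240 to 316 CPM, and 189 ± 9.14 CPM in NC, with a range of 182 to 199 CPM (SD, n = 3), a ratio of 1.45. miR-34c-5p made up 8.18 to 16.8% of the miR-34 counts in KD and 6.67 to 9.62% in NC, and these ranges overlapped. Of the miR-449 relatives that share these seeds, expressed mostly in ciliated cells, all 3 had a read and 1 could be tested. miR-449c-5p was at 67.1 ± 6.45 CPM in KD and 56.8 ± 7.26 CPM in NC (SD, n = 3), with a log2 fold change of 0.26 and an adjusted p of 0.497 by edgeR.

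The members miR-192-5p, miR-215-5p and miR-194-5p, which are abundant in kidney, liver and gut and act with p53 in cell cycle arrest, did not differ between the groups by the adjusted test. miR-192-5p had 2013, 2177 and 1620 counts in KD and 2578, 1793 and 1971 in NC. The levels were 3681, 3622 and 4058 CPM in KD and 4509, 4482 and 3737 CPM in NC. Both numbered NC libraries were above all KD libraries, while the unnumbered NC library lay among the KD libraries and the unnumbered KD library was the highest of its group. The means were 3787 ± 237 CPM and 4243 ± 439 CPM (SD, n = 3), and the log2 fold change was -0.16 (SE 0.0819, 95% interval -0.34 to 0.01) with an adjusted p of 0.253 by edgeR. The unnumbered NC library decided this result: without it the log2 fold change was -0.27 with an adjusted p of 0.00699 by edgeR. As the most deeply counted member, with 12152 counts, miR-192-5p had a counting CV of 2.22%, below the CV between libraries of 6.25% in KD and 10.3% in NC.

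miR-215-5p, which has the seed of miR-192-5p, was counted 111, 98 and 58 times in KD and 88, 63 and 74 times in NC. This gave 203, 163 and 145.3 CPM in KD and 154, 157 and 140.3 CPM in NC. Replicate 1 of KD was the highest and the other KD libraries were near those of NC. The means were 170 ± 29.5 CPM and 151 ± 9.08 CPM (SD, n = 3), with a log2 fold change of 0.20 (SE 0.151, 95% interval -0.13 to 0.52) and an adjusted p of 0.487 by edgeR. miR-215-5p passed the threshold in none of the alternatives.

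miR-194-5p, the product of the hairpins beside both miR-192 and miR-215, had 238, 228 and 144 counts in KD and 222, 135 and 274 in NC. The levels were 435, 379 and 361 CPM in KD and 388, 337 and 519 CPM in NC. The NC libraries held both the lowest and the highest level, the latter in the unnumbered library, and enclosed all KD libraries. The means were 392 ± 38.8 CPM and 415 ± 93.9 CPM (SD, n = 3), and the log2 fold change was -0.09 (SE 0.143, 95% interval -0.40 to 0.22) with an adjusted p of 0.757 by edgeR. Without the unnumbered NC library the sign turned, to 0.089 with an adjusted p of 0.737. The summed level of miR-192-5p, miR-194-5p and miR-215-5p was 4349 ± 202 CPM in KD and 4808 ± 359 CPM in NC (SD, n = 3), a ratio of 0.905. miR-192-5p made up 85.2 to 88.9% of these counts in KD and 85.0 to 90.1% in NC.

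The members miR-143-3p and miR-145-5p, whose cluster is expressed in smooth muscle and fibroblasts, had low counts in these cells, and miR-145-5p lay below the floor. miR-143-3p had 11, 15 and 14 counts in KD and 5, 50 and 18 in NC. The levels were 20.1, 24.96 and 35.1 CPM in KD and 8.75, 125 and 34.1 CPM in NC. NC held both the lowest library, replicate 1, and a library far above all others, replicate 2. The means were 26.7 ± 7.63 CPM and 56.0 ± 61.1 CPM (SD, n = 3), and the log2 fold change was -0.92 (SE 0.643, 95% interval -2.30 to 0.46) with an adjusted p of 0.426 by edgeR. Both numbered NC libraries decided the value: without replicate 2 it was 0.30 with an adjusted p of 0.730, and without replicate 1 it was -1.51 with an adjusted p of 0.0279 by edgeR. NC replicate 2 also had the highest level of miR-1246, 6364 CPM, where the other 5 libraries had 196 to 653 CPM, and its part in the value of miR-143-3p was not tested.

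miR-145-5p, which the same transcript yields, had 0, 0 and 2 counts in KD and 0, 2 and 2 in NC. No library reached the floor of 3 counts, and the miR was not tested. The ratio of the pooled CPM, KD over NC, was 0.485 with a counting interval of 0.0438 to 3.38, so neither a fall nor a rise could be detected at this depth. The exact permutation tests of CPM, two-sided and over single members, gave p = 0.1 for miR-34a-5p and miR-34c-5p, 0.2 for miR-192-5p, 0.4 for miR-215-5p, 0.8 for miR-194-5p and miR-143-3p and 1.0 for miR-145-5p.

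Ratios between members within a library need no scaling between libraries. Such ratios were added after the values were seen, and 4 of the 15 pairs of tested members did not overlap between the groups, beside 22.7% of all pairs of the 360 tested miRs, so that the count is near the background. In 3 of these 4 the higher miR in KD was miR-34c-5p, which passed the filter only through its KD libraries and could enter only as higher in KD, and in the other it was miR-34a-5p. The log2 ratio of miR-34a-5p to miR-192-5p was -4.21, -3.90 and -3.88 in KD and -4.78, -4.74 and -4.33 in NC. Every KD library was above every NC library, and the difference of the means was 0.62. The difference was 1.19 for miR-34c-5p to miR-192-5p, 1.098 for miR-34c-5p to miR-194-5p and 0.87 for miR-34c-5p to miR-215-5p. Each of these gave p = 0.1 by the exact permutation test, two-sided, the smallest possible, and 0.375 after Benjamini-Hochberg adjustment over the 15 pairs. The ratio of the seed partners miR-192-5p and miR-215-5p was 4.49 ± 0.312 in KD and 4.81 ± 0.0704 in NC on the log2 scale (SD, n = 3), and the groups overlapped (exact permutation p = 0.2).

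**Figure D3:**
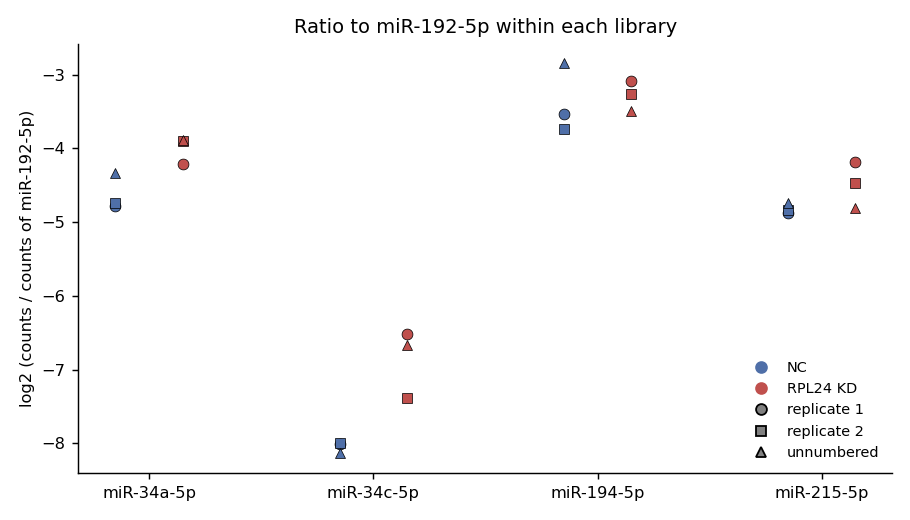
Log2 ratio of the counts of miR-34a-5p, miR-34c-5p, miR-194-5p and miR-215-5p to those of miR-192-5p, with a point for each library of KD and NC. For miR-34a-5p the KD points (-4.21 to -3.88) lie above the NC points (-4.78 to -4.33), and for miR-215-5p the groups overlap.

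Each hairpin yields a guide arm and a passenger arm, and the 6 tested members made up nearly all of the reads of their hairpins, which was not so for miR-145-5p and miR-34b-5p. miR-34a-5p had 624 counts against 1 of miR-34a-3p, 99.8% of the pair (exact 95% interval 99.1 to 99.996). miR-34c-5p had 75 against 1 of miR-34c-3p, 98.7% (92.9 to 99.97), and miR-192-5p had 12152 against 0 of miR-192-3p. miR-215-5p had 492 against 8 of miR-215-3p, 98.4% (96.9 to 99.3). The passenger arm with the most reads was miR-194-3p, with 41 counts against 1241, so that miR-194-5p made up 96.8% (95.7 to 97.7). miR-143-3p had 113 counts against 0 of miR-143-5p, miR-145-5p had 6 against 4 of miR-145-3p, and the miR-34b hairpin gave 3 reads of miR-34b-3p and none of its 5p arm. None of the 8 other arms could be tested between KD and NC, and the intervals cover counting error only.

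The miRs most like each member over the 6 libraries were found by the root mean square difference of log2 CPM, each centred on its own mean. For miR-34a-5p these were miR-181a-2-3p (0.0987), miR-641 (0.132) and miR-339-3p (0.138), beside an SD of miR-34a-5p itself of 0.268. For miR-34c-5p they were miR-25-5p (0.303), miR-378i (0.321) and miR-132-3p (0.337), with an SD of 0.525. The miRs nearest to miR-192-5p were miR-548u (0.0498), miR-148a-3p (0.0648) and let-7i-5p (0.0667), with an SD of 0.130. Nearest to miR-194-5p were miR-769-3p (0.0467), miR-20a-5p (0.0743) and miR-107 (0.0903), with an SD of 0.201. For miR-215-5p they were miR-30a-3p (0.0861), miR-378f (0.0920) and miR-10a-3p (0.0959), with an SD of 0.168. miR-143-3p had no near neighbour: the nearest, miR-671-5p (0.695), miR-4664-3p (0.711) and miR-548ag (0.713), differed from it by much of its own SD of 1.01. With 6 libraries such likeness is a description, and no member was among the nearest of another.

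Other miRs of the p53 pathway were set beside the members, against 5.00% called and 23.6% at an unadjusted p under 0.05 over all tested miRs. Of 11 further miRs reported as p53 transcription or processing targets, 6 could be tested and 0 were called by edgeR (1 at an unadjusted p under 0.05), with a median log2 fold change of -0.01. miR-16-5p, whose processing is linked to p53 and DDX5, was at 1128 ± 32.3 CPM in KD and 1025 ± 132 CPM in NC (SD, n = 3), a log2 fold change of 0.14 with an adjusted p of 0.426. The highest mean level was that of miR-1246, which rested on NC replicate 2 alone, since in the other 5 libraries it lay below miR-16-5p (943 to 1177 CPM over all libraries). It had 653, 419 and 386 CPM in KD and 196, 6364 and 398 CPM in NC. Its log2 fold change was -2.19 with an adjusted p of 0.145, and 0.74 with an adjusted p of 0.0558 by edgeR without NC replicate 2.

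Of the 6 guide arms of the miR-17-92 cluster, which p53 is reported to repress and which promotes proliferation, all were tested, with a median log2 fold change of -0.0038. miR-19a-3p rose, from 1836 ± 33.8 CPM in NC to 2201 ± 88.5 CPM in KD (SD, n = 3), by 0.26 on the log2 scale (SE 0.0707, adjusted p = 0.0487 by edgeR). It kept the call in 1 of 6 fits that left out a library, and lost it under some other settings. The most abundant, miR-92a-3p, had a log2 fold change of 0.14 with an adjusted p of 0.111. Leaving out KD replicate 1 ended every call over all tested miRs, with 28 higher and 28 lower at an unadjusted p under 0.05.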

How the data were processed

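Small RNA of 3 RPL24 KD and 3 NC libraries was sequenced. The authors checked reads with FastQC, used Flexbar for trimming and miRExpress for alignment to miRBase, and deposited raw counts of each mature miR, with no normalization; their own test was DESeq2. The members and lists were chosen with earlier results of these data known, though the rule for the members uses names alone. Groups came from the labels, and 0 columns were left out.

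The comparison used the quasi-likelihood test of edgeR 4.0.16 (R 4.3.3) with bias-adjusted deviance, TMM factors, no replicate block, filterByExpr (10 counts at least) and Benjamini-Hochberg adjustment over 360 miRs, called at 0.05. Named were all members, their other arms, the called and the most abundant miR of each list, and the 3 miRs most like each tested member. A further fixed list of miRs is not reported here. miR-16-5p was named after its values were seen. Alternatives were DESeq2 1.42.0, limma-voom (3.58.1), other scalings and filters, a replicate block over the numbered libraries alone and leaving out each library. On simulated data 25 of 52 miRs shifted by a log2 value of 0.5 were found by edgeR, and 64 of 65 shifted by 1.5, with 0 false calls. Sequences and hairpins came from RefSeq on GRCh38, and overlapping genes from GENCODE.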

Additional observations from a re-analysis of the deposited data

How the results depend on the processing

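Depth limited miR-34b-5p, miR-145-5p and miR-34c-5p. For miR-143-3p the CV between NC libraries, 109%, was above the counting CV of 23.0%, and the precision of all members rested on 3 libraries a group. The cause of the changes below was not tested. Of all tested miRs, 12 were called higher and 6 lower. Leaving out 1 library gave 0 to 16 higher and 0 to 20 lower. The number called lower was 9 with limma-voom, 9 with RLE factors, 8 with DESeq2 on the tested miRs, 4 with DESeq2 on all detected miRs, 18 with total counts, 16 with no filter, 17 under a minimum mean count of 100, 17 with the numbered libraries alone and 10 with legacy edgeR, the last pair of settings being chosen after seeing the data. Of the members, 0 to 1 were called higher and 0 to 1 lower when 1 library was left out, and the numbered libraries alone called 1 lower.

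The same numbers do not mark shared cultures in the labels, and deviations of same-numbered libraries correlated at -0.03. The fit with the numbers as a replicate block left out both unnumbered libraries, so it rested on fewer libraries than the main fit. It called 29 miRs higher and 28 lower, 2 of them members: miR-192-5p (-0.31, adjusted p = 9.27e-06) and miR-143-3p (-1.53, adjusted p = 0.00269, edgeR). In this fit miR-194-5p turned to 0.15, miR-17-5p to 0.025 and miR-20a-5p to 0.14 (adjusted p = 0.0218, edgeR). Also called were miR-16-5p (0.26, adjusted p = 0.0289), miR-92a-3p (0.15, adjusted p = 0.00604) and miR-1246 (-2.19, adjusted p = 1.56e-75). The same numbered libraries without the block gave -0.31 for miR-192-5p (adjusted p = 0.00446, edgeR). They gave 0.13 for miR-194-5p, 0.023 for miR-17-5p and 0.14 for miR-20a-5p, so these signs turned without the block too.

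Leaving out 1 library moved the log2 fold change of miR-34a-5p over 0.35 to 0.57, miR-34c-5p 0.85 to 1.31, miR-192-5p -0.27 to -0.12, miR-194-5p -0.20 to 0.089, miR-215-5p 0.050 to 0.27, miR-143-3p -1.51 to 0.30, miR-17-5p -0.19 to 0.032, miR-20a-5p -0.12 to 0.13, miR-19b-3p -0.088 to 0.12 and miR-1246 -2.76 to 0.74. miR-19b-3p turned to -0.027 with total counts and -0.014 under the minimum mean count of 100. The call of miR-19a-3p was lost with total counts (adjusted p = 0.0900, edgeR), legacy edgeR (0.0579) and the numbered libraries alone (0.0713, edgeR). It was kept with DESeq2, limma-voom, RLE factors, the other filters and the block. Under the other settings miR-34a-5p stayed between 0.39 and 0.48, with 0 of 10 fits passing the threshold (adjusted p 0.0589 to 0.161). Arm ratios were not tested, since no hairpin had a mean of 10 counts in both arms.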
